A study of Mus musculus with 6 samples.

Results

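Collagens are the triple-helical proteins of the extracellular matrix, and their genes were taken here as all protein-coding genes of the deposited count table whose symbol reads Col, a number, a and a number. The rule found 44 genes among the 54532 genes of the table. They were measured in cardiomyocyte (CM) nuclei of mouse hearts at postnatal day 9. Wild-type ICR mice had received 1e+11 viral genomes of AAV9 under the skin at postnatal day 6, 3 d before collection. The virus carried GFP (the control), YAP6SA or YAP5SA, each driven by the cTnT promoter, a cardiac troponin T element that is active in CMs. YAP5SA is a form of the transcriptional coactivator YAP with serines at its LATS kinase sites changed to alanine, and YAP6SA carries 1 more such change, at the serine used for contact with the TEAD DNA-binding factors. An antibody to PCM-1, a protein of the CM nuclear surface, was used to pull down nuclei, and libraries that keep no strand were made from their poly-A RNA. There were 2 libraries per group, from 2 hearts, and each of the 2 batches held 1 library of each of the 3 groups. What separates the batches is not given in the sources used here.

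A collagen molecule is built from 3 chains, which are hydroxylated, folded and glycosylated in the endoplasmic reticulum and cut, assembled and crosslinked outside the cell. Fibrillar collagens such as types I and III give the heart its tensile strength and are made mainly by fibroblasts. Type IV collagen forms the mesh of basement membranes, including the one that surrounds each CM, and its chains combine as *Col4a1* with *Col4a2*, as *Col4a3* with *Col4a4* and *Col4a5*, or as *Col4a5* with *Col4a6*. FACIT collagens such as type XII decorate the surface of fibrils, type VI forms beaded filaments between cells and fibrils, and the multiplexins *Col15a1* and *Col18a1* sit at or near basement membranes.

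The 6 genes of type IV collagen lie as 3 head-to-head pairs. In the GENCODE M21 annotation of GRCm38, *Col4a3* (ENSMUSG00000079465, plus strand) starts at position 82586921 of chromosome 1 and *Col4a4* (ENSMUSG00000067158, minus strand) at 82586849, so that 71 bases lie between their first exons. *Col4a5* (ENSMUSG00000031274, plus strand) starts at 141475385 of chromosome X and *Col4a6* (ENSMUSG00000031273, minus strand) at 141474076, with 1308 bases between them. *Col4a1* (minus strand) and *Col4a2* (plus strand) share 22 bases at their starts on chromosome 8. Sequences upstream of the start were taken from RefSeq promoter windows of build GRCm38.p6, which were found for 35 of the 44 genes. They are shown for the first pair because both of its genes rose the most within the type, and for the second because 1 gene rose and its neighbour did not pass the test. The strands and positions are chr1:82586850-82586920 (minus strand, read toward *Col4a4*), chrX:141475169-141475384 (plus strand, read toward *Col4a5*) and chrX:141474076-141474326 (minus strand, read toward *Col4a6* and ending with its first transcribed base). Capitals mark GGAATG, the core of the TEAD motif, or its reverse complement CATTCC.
Between *Col4a4* and *Col4a3*: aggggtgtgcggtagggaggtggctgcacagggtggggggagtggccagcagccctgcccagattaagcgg
Upstream of *Col4a5*: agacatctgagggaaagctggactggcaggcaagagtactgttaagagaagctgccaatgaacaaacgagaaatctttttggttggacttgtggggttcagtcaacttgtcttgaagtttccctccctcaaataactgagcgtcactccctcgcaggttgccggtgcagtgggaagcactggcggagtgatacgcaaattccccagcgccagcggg
Upstream of *Col4a6*: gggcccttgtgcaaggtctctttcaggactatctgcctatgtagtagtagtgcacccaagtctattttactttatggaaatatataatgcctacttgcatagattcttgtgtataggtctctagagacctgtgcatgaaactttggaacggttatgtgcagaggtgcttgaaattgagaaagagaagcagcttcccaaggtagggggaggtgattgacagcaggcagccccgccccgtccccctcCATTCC
The 3 stretches were 69.0%, 52.3% and 47.8% G or C. The motif GGAATG, searched on both strands, occurred in the 300-base windows of 5 of the 35 collagen genes (14.3%), namely *Col3a1*, *Col4a6*, *Col6a2*, *Col18a1* and *Col20a1*, and in 4481 of all 27025 genes with a window (16.6%). None of the 9 collagen genes with a window that changed in YAP5SA OE CMs held it there. *Col4a3* and *Col12a1*, which had the largest changes, had no window of their own and are not among them. No match says only that these letters are absent from that window.

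Libraries held between 14552847 and 19615627 counts on genes, and the collagen genes together took 0.239% of them in the batch 1 library of GFP and 0.181% in that of batch 2, 0.290% and 0.190% in YAP6SA, and 0.348% and 0.417% in YAP5SA. Levels are given as CPM, counts scaled to the TMM-adjusted library size. Markers of CMs were present in every library, with a summed level of 10 genes between 36360 and 80390 CPM, lowest in the YAP5SA libraries (49840 and 36360 CPM). Markers of other cells were also present, since 15 fibroblast markers summed to between 431.8 and 982.6 CPM and 13 endothelial markers to between 645.1 and 934.8 CPM, and none of these markers was at 0 throughout. In bulk nuclei, more cells of a type and more RNA per cell cannot be told apart.

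Of the 44 collagen genes, 33 passed the filter on low counts (a median log2 CPM above 1 in at least 1 group) and were tested. The other 11 were *Col2a1*, *Col6a4*, *Col8a2*, *Col9a1*, *Col10a1*, *Col11a1*, *Col13a1*, *Col17a1*, *Col19a1*, *Col22a1* and *Col28a1*, with at most 39 counts in any library. *Col19a1* had 0 counts in all of them, and a count of 0 allows up to 3 counts, which is 0.153 to 0.206 CPM by library, for counting error only. In GFP, 20 collagen genes had a mean above 10 CPM. Levels were also taken per kilobase of exon, with all annotated exons of a gene merged, which compares genes only roughly. On this scale the highest mean levels in GFP were those of *Col4a2* (48.4 CPM per kb), *Col3a1* (45.8), *Col4a5* (31.2), *Col4a1* (22.5) and *Col1a1* (21.0). *Col4a3*, *Col4a4* and *Col12a1* were low there, at 0.752, 1.91 and 0.278 CPM per kb. In YAP5SA OE CMs these 3 reached 21.4, 36.3 and 15.3 CPM per kb, while *Col4a2* stood at 85.8 and *Col3a1* at 44.3.

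In YAP5SA OE CMs, 10 of the 33 collagen genes tested were up-regulated against GFP and 1 was down-regulated (edgeR quasi-likelihood test, Benjamini-Hochberg adjusted p, called FDR, under 0.05 over all 13323 genes tested). Over all genes, 12.8% were called higher and 9.18% lower. The up-regulated genes were 5 of the 6 type IV chains, the FACIT genes *Col12a1* and *Col9a2*, the fibrillar gene *Col27a1*, the multiplexin *Col15a1* and the type VI chain *Col6a3*, and the down-regulated gene was *Col11a2*. The median log2 fold change of the 33 genes was 0.36, against -0.003 over all genes. Of the 33, *Col9a2* and *Col6a5* passed the filter only through the YAP5SA group, and *Col25a1* through both YAP groups, so that counts and medians over the genes tested describe them only. At an unadjusted p under 0.05, 13 collagen genes were higher and 2 were lower, beside 19.4% and 17% of all genes. The number called higher was 5 without GFP replicate 1, 4 without GFP replicate 2 and 5 without YAP5SA replicate 2, and the number called lower was 0 without either of the latter.

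**Figure D1:**
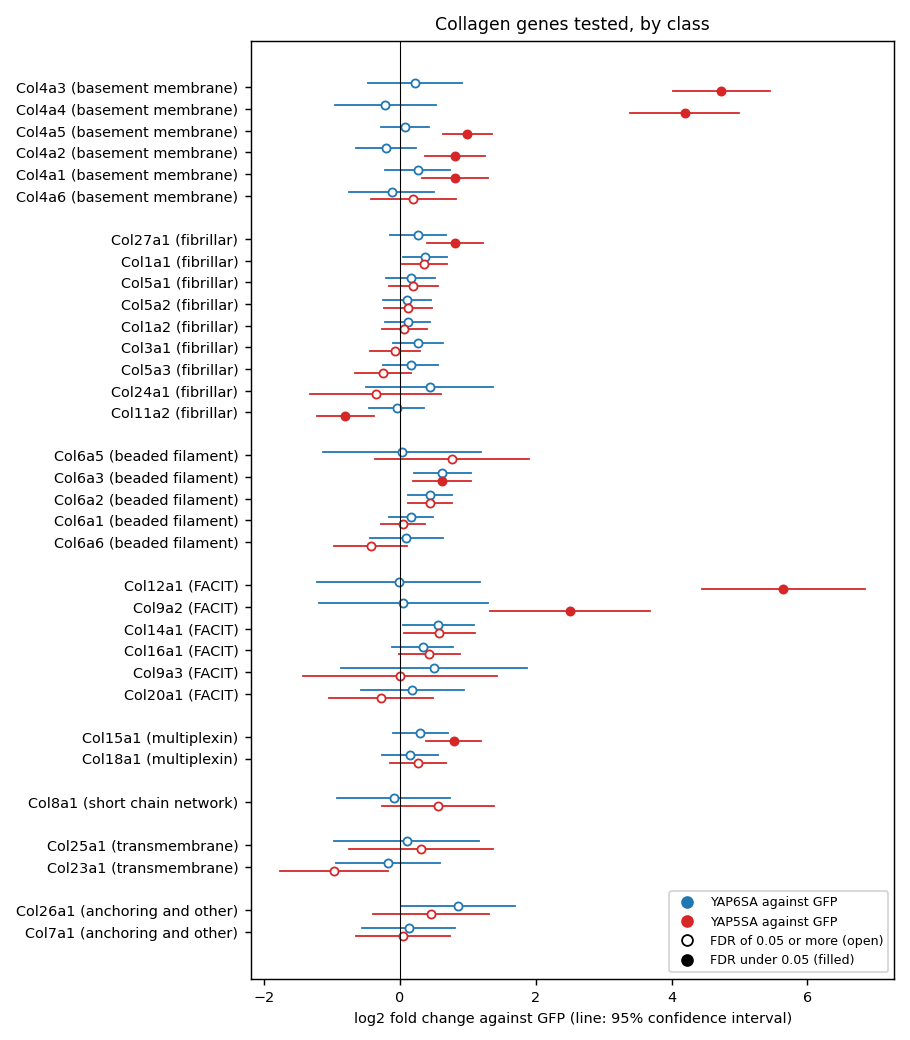
Log2 fold change against GFP (horizontal axis) of the 33 collagen genes tested, grouped by class, in YAP6SA (blue) and YAP5SA (red) OE CMs; lines are 95% confidence intervals and filled points passed the FDR threshold of 0.05. All 11 filled points are red, and *Col12a1*, *Col4a3* and *Col4a4* lie above 4 on the log2 scale.

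*Col4a3*, a chain of the type IV network known from the kidney glomerulus and mutated in Alport syndrome, was counted 122 and 132 times in GFP, 172 and 134 times in YAP6SA, and 1786 and 5516 times in YAP5SA (batch 1 and batch 2 in this order, here and throughout). In CPM these were 6.39 and 8.59, then 8.72 and 8.10, then 117.9 and 308.0. Both YAP5SA libraries were far above the other 4, which overlapped. Against GFP, YAP5SA gave a log2 fold change of 4.73 (standard error 0.32, a 26.6-fold rise, quasi-likelihood FDR 5.2e-05), with differences of 4.18 in batch 1 and 5.14 in batch 2.
*Col4a4*, its partner chain and head-to-head neighbour, had 19.0 and 21.6 CPM in GFP, 20.4 and 13.5 in YAP6SA, and 230.7 and 540.5 in YAP5SA. The YAP5SA libraries again stood apart from the other 4. Its log2 fold change was 4.19 (standard error 0.36, 18.3-fold, quasi-likelihood FDR 1.9e-04). Within batches it was 3.60 and 4.64. *C430014B12Rik* overlaps 563 of the 9967 exon bases of *Col4a3* on the other strand and had 18 counts in all libraries together. In a non-directional library, reads that lie within those shared bases cannot be assigned to either gene.

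*Col4a5*, the third chain of that network, rose less from a higher level. It had 193.5 and 226.2 CPM in GFP, 208.0 and 233.0 in YAP6SA, and 349.6 and 490.7 in YAP5SA, and the lowest YAP5SA library was above all 4 others. A log2 fold change of 0.99 was found (standard error 0.16, quasi-likelihood FDR 0.00298). Batch 1 had 0.85 and batch 2 had 1.12. Its neighbour *Col4a6*, by contrast, had 10.2 and 6.90 CPM in GFP, 8.46 and 7.07 in YAP6SA and 11.9 and 7.76 in YAP5SA, and these groups overlapped, although YAP5SA was the highest in each batch. The log2 fold change of *Col4a6* was 0.20 (95% interval -0.42 to 0.82, FDR 0.647), and the difference between it and its neighbour was not tested.

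*Col4a1* and *Col4a2*, the chains of the ubiquitous basement membrane network, were the other type IV genes that rose. *Col4a1* had 183.8 and 152.4 CPM in GFP, 249.3 and 157.4 in YAP6SA, and 256.8 and 322.3 in YAP5SA. Its YAP6SA library of batch 1 lay close under the lower YAP5SA library, and the YAP5SA and GFP libraries did not overlap. Against GFP its log2 fold change was 0.81 (standard error 0.22, quasi-likelihood FDR 0.0261). Batch 1 had 0.48 and batch 2 had 1.08.
*Col4a2* had 313.6 and 327.0 CPM in GFP, 288.7 and 263.3 in YAP6SA, and 450.6 and 684.6 in YAP5SA, with no overlap between YAP5SA and the rest. Its log2 fold change was 0.81 (standard error 0.20, quasi-likelihood FDR 0.0180). The batches had 0.52 and 1.07. Without GFP replicate 1, GFP replicate 2 or YAP5SA replicate 2, neither gene was called, with log2 fold changes down to 0.39 for *Col4a1* and 0.48 for *Col4a2*. Without the replicate block, *Col4a1* was not called either.

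**Figure D2:**
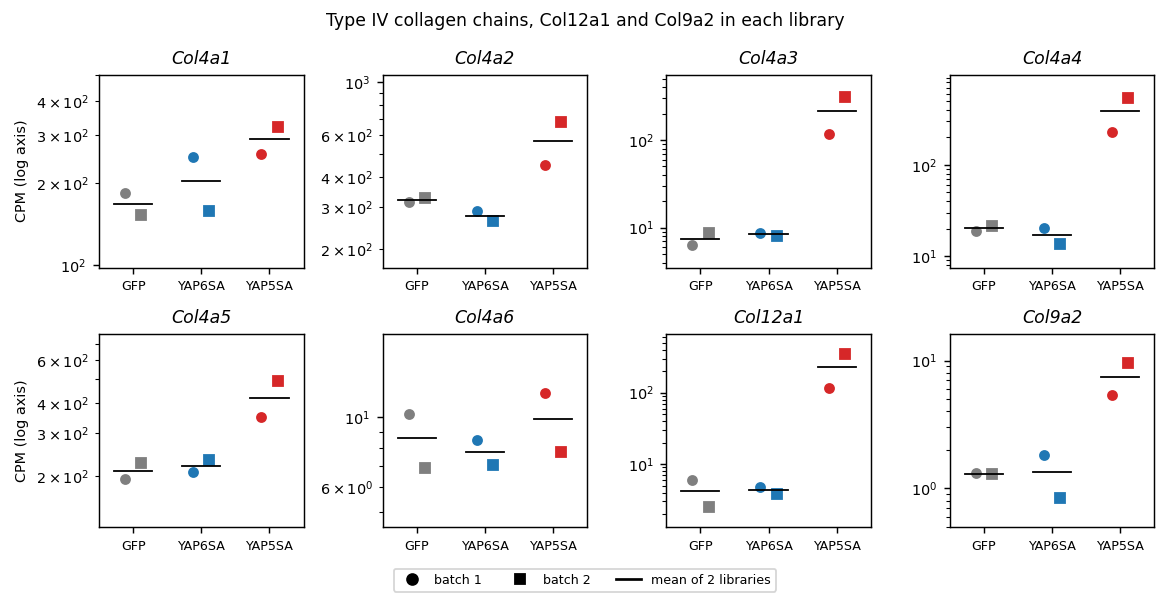
Level in each library (CPM, log axis with its own range in each panel) of the 6 type IV collagen genes, *Col12a1* and *Col9a2*, by group; circles are batch 1, squares batch 2 and bars the mean of the 2 libraries. The YAP5SA points lie above the GFP points in each panel except that of *Col4a6*, where the groups overlap.

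*Col12a1* (ENSMUSG00000032332), a FACIT collagen of fibril surfaces and tendon-like tissue, changed the most of all collagen genes. It had 113 and 39 counts in GFP, 95 and 63 in YAP6SA, and 1790 and 6213 in YAP5SA. With n = 2 libraries, the mean level (± SD) in CPM was 4.23 ± 2.39 for GFP, 4.31 ± 0.713 for YAP6SA and 232.5 ± 162 for YAP5SA. The YAP5SA library of batch 2 was about 3 times that of batch 1, at 346.9 and 118.1 CPM, and both were far above the other 4. This was a log2 fold change of 5.65 (standard error 0.54, 50.1-fold, quasi-likelihood FDR 2.5e-04), and the batches had 4.29 and 7.03.
*Col9a2* (ENSMUSG00000028626), a FACIT chain of cartilage, stood much lower, with 25 and 20 counts in GFP, 36 and 14 in YAP6SA and 81 and 171 in YAP5SA. Its groups did not overlap between YAP5SA and the rest. It entered the test only through the YAP5SA group, so its log2 fold change of 2.51 (standard error 0.53) is a description, and the gene was not called without GFP replicate 2 or YAP5SA replicate 2. Of the other 4 FACIT genes tested, none was called, and *Col14a1* had 0.58 (FDR 0.101) and *Col16a1* 0.43 (FDR 0.153).

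Of the 9 fibrillar genes tested, 1 was called higher and 1 lower in YAP5SA OE CMs (11.1% each, near the shares of all genes). The main chains of the interstitial matrix did not pass the test. *Col1a1* had 166.3 and 109.6 CPM in GFP, 231.9 and 130.8 in YAP6SA and 216.9 and 137.9 in YAP5SA. *Col1a2*, its partner in type I collagen, had 202.0 and 125.8, then 234.2 and 126.8, then 206.4 and 134.4. *Col3a1*, the type III chain, had 533.3 and 365.6, then 721.0 and 390.8, then 546.0 and 323.4. In each of these genes the library of batch 2 was the lower one in all 3 groups, and the groups overlapped. Within each batch, the YAP5SA library was above that of GFP for *Col1a1* and *Col1a2*, and for *Col3a1* it was above it in batch 1 and below it in batch 2. The log2 fold changes of YAP5SA against GFP were 0.36 for *Col1a1* (95% interval 0.03 to 0.69, FDR 0.109), 0.06 for *Col1a2* (-0.27 to 0.40, FDR 0.790) and -0.07 for *Col3a1* (-0.45 to 0.30, FDR 0.789).
*Col27a1*, a fibrillar collagen of cartilage and developing tissue, had 24.9 and 21.9 CPM in GFP, 32.6 and 24.1 in YAP6SA, and 42.0 and 39.4 in YAP5SA, the highest pair. Its log2 fold change was 0.80 (standard error 0.19, quasi-likelihood FDR 0.0141), the batches had 0.75 and 0.85, and it was not called without either GFP library. *Col11a2*, a chain of type XI collagen, which nucleates thin fibrils, was the collagen gene called lower. It had 61.0 and 87.8 CPM in GFP, 64.9 and 77.6 in YAP6SA, and 44.6 and 39.2 in YAP5SA. Both YAP5SA libraries lay below the other 4, and the gene fell by 0.80 on the log2 scale (standard error 0.19, quasi-likelihood FDR 0.0144), by 0.45 and 1.16 in the batches. It was not called without GFP replicate 2 or YAP5SA replicate 2.

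*Col15a1*, a multiplexin of the basement membrane zone of muscle and vessels, had 99.1 and 67.1 CPM in GFP, 134.3 and 73.7 in YAP6SA, and 147.0 and 133.2 in YAP5SA. The YAP5SA libraries did not overlap with GFP, and the YAP6SA library of batch 1 lay just above the lower of them. The log2 fold change against GFP was 0.79 (standard error 0.18, quasi-likelihood FDR 0.0142). *Col18a1*, the other multiplexin and the source of endostatin, had 0.27 (FDR 0.329).
*Col6a3*, the long chain of type VI collagen, had 49.0 and 27.3 CPM in GFP, 72.8 and 44.1 in YAP6SA, and 59.5 and 52.8 in YAP5SA. The YAP5SA libraries lay within the range of YAP6SA, and above both GFP libraries. Its log2 fold change in YAP5SA was 0.62 (standard error 0.19, quasi-likelihood FDR 0.0428), and the batches had 0.28 and 0.95. It was not called without the replicate block, in the fit of the 4 YAP5SA and GFP libraries alone or in 5 of the 6 fits with 1 library left out, and *Col15a1* was lost without the block and without GFP replicate 1, GFP replicate 2 or YAP5SA replicate 2. *Col6a1* and *Col6a2*, the short chains, had 0.04 (FDR 0.872) and 0.45 (FDR 0.0516).
The single short chain gene tested (*Col8a1*), the 2 transmembrane genes (*Col23a1* and *Col25a1*) and the 2 anchoring or other genes (*Col7a1* and *Col26a1*) were not called, and their log2 fold changes ran from -0.97 for *Col23a1* to 0.56 for *Col8a1*.

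In the direct comparison of the variants, YAP5SA OE CMs had 6 of the 33 collagen genes higher than YAP6SA OE CMs and 1 lower (quasi-likelihood test), beside 9.0% and 5.68% of all genes. At an unadjusted p under 0.05, 9 were higher and 2 lower, beside 16.4% and 14.5% of all genes. The YAP5SA libraries are the same as in the comparison with GFP. *Col12a1* was higher by 5.66 on the log2 scale (FDR 3.1e-04), *Col4a3* by 4.51 (7.0e-05), *Col4a4* by 4.41 (2.1e-04), *Col9a2* by 2.45 (tested only through the YAP5SA group), *Col4a2* by 1.02 (0.00983) and *Col4a5* by 0.91 (0.00584). *Col11a2* was lower, with -0.75 (FDR 0.0249). *Col4a1*, with 0.54 (95% interval 0.06 to 1.03, FDR 0.122), *Col27a1*, with 0.53 (FDR 0.0801), and *Col15a1*, with 0.49 (FDR 0.0981), were not past the threshold, and *Col6a3* had -0.004 (95% interval -0.43 to 0.42). The median over the collagen genes tested was 0.02, against -0.01 over all genes. Without YAP6SA replicate 2, *Col4a2*, *Col4a5*, *Col9a2* and *Col11a2* were not called and 3 genes were higher, and without YAP5SA replicate 1, 10 were higher. *Col11a2* was also not called without YAP6SA replicate 1, YAP5SA replicate 2 or the replicate block, and *Col9a2* was not called without YAP5SA replicate 2.

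In YAP6SA OE CMs, 0 of the 33 collagen genes were called against GFP in either direction, beside 0.045% of all genes higher and 0.0% lower (edgeR quasi-likelihood test). DESeq2 and edgeR's likelihood ratio test also called 0 collagen genes, and 5 were higher and 0 lower at an unadjusted p under 0.05 (*Col1a1*, *Col6a2*, *Col6a3*, *Col14a1* and *Col26a1*), beside 3.86% and 2.07% of all genes. The comparison uses the same GFP libraries as that of YAP5SA. For the genes with the largest changes in YAP5SA, the values in YAP6SA were 0.22 for *Col4a3* (95% interval -0.48 to 0.91), -0.22 for *Col4a4* (-0.96 to 0.53), -0.02 for *Col12a1* (-1.22 to 1.18) and 0.05 for *Col9a2* (-1.19 to 1.29). *Col6a3* had 0.63 (standard error 0.19, quasi-likelihood FDR 0.611), and the batches had 0.57 and 0.69. A fit of the 4 GFP and YAP6SA libraries alone called it (0.63, FDR 0.0196), and in that fit 1.31% of all genes were called higher and 0.53% lower. It was also called without YAP5SA replicate 1 (FDR 0.0371) and without YAP5SA replicate 2 (FDR 0.0229). The median of the collagen genes was 0.16, and 26 of 33 had a positive value. This median was 0.035 without YAP6SA replicate 1 and 0.25 without YAP6SA replicate 2. Beside it, all 15 fibroblast markers had a positive value in YAP6SA, with a median of 0.45, of which 0 were called and 6 had an unadjusted p under 0.05. The part of these cells in the collagen values was not tested.

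Fibroblast markers allow each collagen level to be read beside the level of fibroblast RNA in the same library. The 15 markers (*Pdgfra*, *Tcf21*, *Dcn*, *Lum*, *Dpt*, *Postn*, *Ogn*, *Mfap4*, *Mfap5*, *Pi16*, *Clec3b*, *Dpep1*, *Fbln1*, *Meox1* and *Gas1*) summed to 755.4 and 431.8 CPM in GFP, 982.6 and 564.4 in YAP6SA, and 842.4 and 553.6 in YAP5SA. *Col1a1*, *Col1a2* and *Col3a1* together had 901.6 and 601.1 CPM in GFP, 1187 and 648.4 in YAP6SA, and 969.3 and 595.7 in YAP5SA. Both sums were lower in batch 2 in every group, and the ratio of the collagen sum to the marker sum stayed between 1.08 and 1.39 over the 6 libraries. The lower level in batch 2 was not particular to fibroblast markers. Endothelial markers summed to 784.9 and 645.1 CPM in GFP, 934.8 and 650.9 in YAP6SA, and 821.8 and 652.2 in YAP5SA. The endocardial, mural and smooth muscle sums were also lower in batch 2 in every group, whereas the macrophage sum was higher. Which cells the collagen RNA came from was not tested.
The sum of *Col4a3* and *Col4a4* did not follow the fibroblast markers. It was 25.4 and 30.2 CPM in GFP, 29.2 and 21.6 in YAP6SA, and 348.6 and 848.4 in YAP5SA, and its ratio to the marker sum went from 0.0336 and 0.0699 in GFP, and 0.0297 and 0.0383 in YAP6SA, to 0.414 and 1.53 in YAP5SA. The library with the highest sum, YAP5SA of batch 2, had the lower fibroblast marker sum of the 2 YAP5SA libraries and the lowest CM marker sum of all 6. The ratio of *Col4a1* and *Col4a2* to the fibroblast marker sum was 0.659 and 1.11 in GFP, 0.547 and 0.745 in YAP6SA, and 0.840 and 1.82 in YAP5SA. In each batch YAP5SA had the highest ratio, while over both batches the groups overlapped. This overlap depends on the fibroblast marker sum, which differed between the batches. Before division the sum was 497.4 and 479.4 CPM in GFP, 538.0 and 420.7 in YAP6SA, and 707.4 and 1007 in YAP5SA, where YAP5SA did not overlap with the rest. A ratio to the markers of other cells was not taken.

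**Figure D3:**
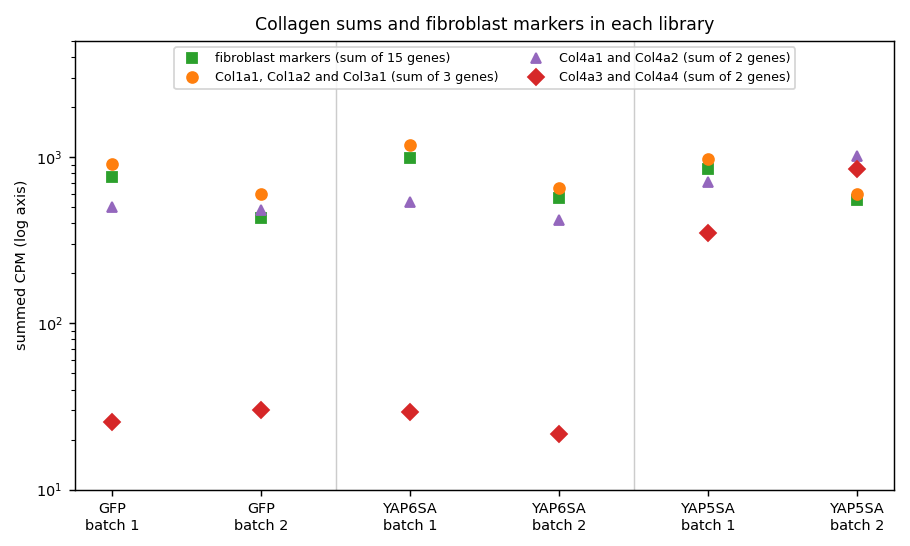
Summed CPM (log axis) in each of the 6 libraries for 15 fibroblast markers (squares), *Col1a1*, *Col1a2* and *Col3a1* (circles), *Col4a1* and *Col4a2* (triangles) and *Col4a3* and *Col4a4* (diamonds). The circles and squares fall together from batch 1 to batch 2 in each group, whereas the diamonds are at 21.6 to 30.2 CPM in GFP and YAP6SA and at 348.6 and 848.4 CPM in YAP5SA.

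Single fibroblast markers did not all behave alike in YAP5SA OE CMs. Of the 15, 3 were called higher than in GFP and 0 lower, beside 12.8% and 9.18% of all genes. The 3 were *Gas1*, and *Ogn* and *Meox1*, the latter pair named after their values were seen. The median log2 fold change of the 15 was 0.18, with a range from -0.50 to 1.64. Against YAP6SA, *Meox1* was called higher and *Mfap4* lower, where 9.0% and 5.68% of all genes were. The 5 fibroblast markers with the highest mean level over the groups were *Postn*, *Dcn*, *Mfap4*, *Mfap5* and *Gas1*, and their values against GFP were 0.26, 0.34, -0.39, 0.19 and 0.93. Some markers of other cells were called as well, to be read beside the same shares of all genes against GFP. The 5 epicardial markers summed to 40.9 and 31.7 CPM in GFP, 57.5 and 31.7 in YAP6SA, and 125.5 and 188.5 in YAP5SA, with 2 of the 5 called higher, *Wt1* (3.17) and *Krt19* (2.21), the latter named after its value was seen. Of 4 smooth muscle markers listed, 2 were tested, and both were called higher (*Myh11*, 1.00, and *Cnn1*, 1.70). The same held for 1 of 7 macrophage markers tested (*C1qa*, 0.96). In either direction, 0 of the 13 endothelial, 0 of the 3 endocardial, 0 of the 7 mural, 0 of the 2 Schwann cell and 0 of the 1 erythroid markers tested were called. *Krt19* and *Cnn1* entered the test through the YAP groups and not through GFP, and the macrophage marker *Fcgr1* entered it through the YAP5SA group only. The 8 markers of other cells called higher became 2 without GFP replicate 2, 3 without YAP5SA replicate 2 and 4 without the replicate block, and those called lower became 1 without GFP replicate 1 and 2 without YAP5SA replicate 1. Of the 10 CM markers, 2 were called lower (*Ryr2* and *Pln*, named after their values were seen). A negative value was found for 9 of the 10, with a median log2 fold change of -0.76. At an unadjusted quasi-likelihood p under 0.05, 0 were higher and 6 lower, beside 19.4% and 17% of all genes. The part of any of these cells in the rise of the collagen genes was not tested.

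The batches were compared in the same fit, as batch 2 minus batch 1 over all 3 groups. Of the collagen genes, 0 were called in either direction, beside 0.06% of all genes higher and 0.143% lower, while at an unadjusted p under 0.05, 2 were higher and 14 were lower, beside 6.1% and 6.03% of all genes. The median log2 difference was -0.33 for the collagen genes, against 0.001 over all genes. It was -0.69 for the fibroblast markers, of which 14 of 15 were negative and 3 were called lower (*Postn*, *Mfap4* and *Mfap5*). Markers of other cells were lower as well, with 0 called. The median was -0.29 for the endothelial markers (13 of 13 negative) and -0.72 for the endocardial markers (3 of 3 negative). Both smooth muscle markers tested were negative. The macrophage markers went the other way (0.40, 7 of 7 positive), and 6 of the 10 CM markers were positive. *Col1a1* had -0.69 (quasi-likelihood FDR 0.0601), *Col1a2* -0.73 (FDR 0.0548) and *Col3a1* -0.73 (FDR 0.0875), with values between -0.54 and -0.88 in each of the groups. *Col4a3* had 0.65 (FDR 0.333), *Col4a4* 0.32 (FDR 0.691) and *Col12a1* 0.29 (FDR 0.830), and within groups these genes did not keep 1 sign. The difference was 0.42, -0.11 and 1.38 for *Col4a3* in GFP, YAP6SA and YAP5SA, 0.19, -0.59 and 1.23 for *Col4a4*, and -1.19, -0.33 and 1.55 for *Col12a1*. With 1 library per group and batch, whether the batches respond differently could not be tested.

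**Figure D4:**
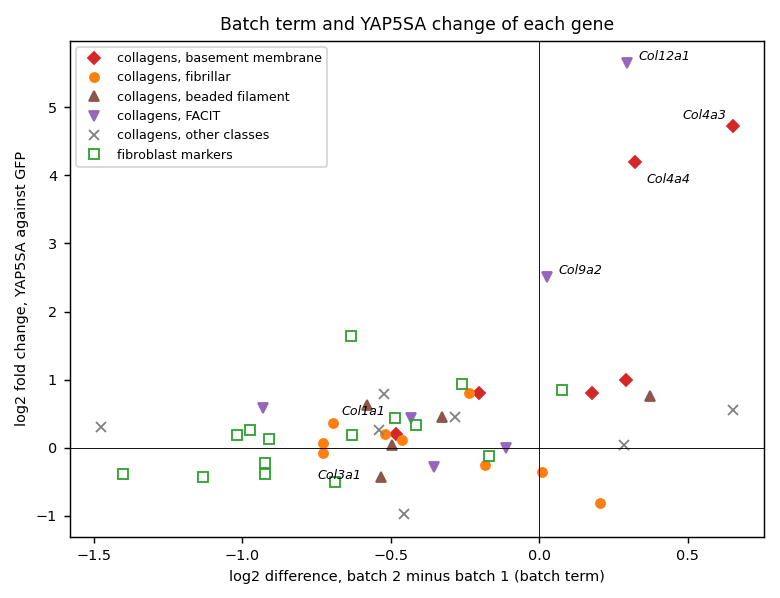
Log2 fold change of YAP5SA against GFP (vertical axis) against the log2 difference of batch 2 minus batch 1 (horizontal axis) for the 33 collagen genes tested (filled symbols and crosses, by class) and 15 fibroblast markers (open squares). *Col1a1* and *Col3a1* lie among the fibroblast markers left of -0.5, and *Col4a3*, *Col4a4*, *Col12a1* and *Col9a2* lie right of 0.

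Genes whose products modify, fold and crosslink collagen were read from the same fits. Of the 30 tested among 33 listed, 9 were called higher in YAP5SA OE CMs against GFP and 1 lower. The shares of all genes were 12.8% higher and 9.18% lower. *Plod2*, the lysyl hydroxylase of collagen telopeptides, had 189.7 and 199.6 CPM in GFP, 166.0 and 215.3 in YAP6SA, and 1134 and 2047 in YAP5SA. It did not overlap between YAP5SA and the rest, and its log2 fold change was 2.97 (standard error 0.22, quasi-likelihood FDR 8.9e-05). *Serpinh1*, which encodes the collagen chaperone HSP47, had 204.5 and 189.6 CPM in GFP, 226.1 and 245.5 in YAP6SA, and 419.1 and 621.0 in YAP5SA, a log2 fold change of 1.38 (FDR 0.00145).
The prolyl 4-hydroxylase subunit *P4ha1* was also called higher (1.49, FDR 0.00304). Another such subunit, *P4ha3*, and the crosslinking enzyme *Lox* are among the 9 but entered the test only through the YAP5SA group, so that their values are a description. *P4ha3* had 45 and 10 counts in GFP and 122 and 249 in YAP5SA (2.86), and *Lox* had 56 and 22 counts, then 105 and 290 (2.43). The other 4 were *P4hb*, *Pcolce*, *Adamts14* and *Loxl2*, which were named after their values were seen, with values from 0.63 to 1.11. The gene called lower was *Adamts3*, a procollagen N-proteinase, with -0.90 (FDR 0.0195). The prolyl 4-hydroxylase subunit *P4ha2* and the lysyl hydroxylases *Plod1* and *Plod3* did not pass the test.

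Of 10 remodelling genes tested, 3 were called higher and 0 lower in YAP5SA OE CMs, beside 12.8% and 9.18% of all genes. The 3 were the metalloproteinase inhibitors *Timp2* (1.99, FDR 0.00109) and *Timp1* (1.92, FDR 0.0125) and the collagen-binding matricellular gene *Sparc* (1.46, FDR 0.00359). *Mmp2*, *Mmp14* and *Mmp15*, which encode metalloproteinases, were not called. Of 7 collagen receptor genes tested, 4 were called higher and 0 lower, beside the same shares of all genes. *Ddr2*, a receptor tyrosine kinase for fibrillar collagen, had 27.4 and 24.1 CPM in GFP, 32.6 and 17.7 in YAP6SA, and 98.3 and 232.1 in YAP5SA. *Ddr1*, a receptor of the same family that also binds type IV collagen, had 95.7 and 112.8, then 83.0 and 113.2, then 245.8 and 566.9. Both were higher in the YAP5SA libraries than in all others, with log2 fold changes of 2.66 (FDR 0.00199) and 1.86 (quasi-likelihood FDR 7.9e-04). The integrin chains *Itgb1* (1.02, FDR 0.00266) and *Itga1* (0.97, FDR 0.00462) were the other 2.

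The partners of type IV collagen in the basement membrane went in both directions in YAP5SA OE CMs. Of 14 tested, 3 were called higher and 3 lower, beside 12.8% and 9.18% of all genes. The partners called were named after their values were seen. *Agrn*, which encodes the proteoglycan agrin, had a log2 fold change of 0.94 (FDR 0.00633), and the laminin chain *Lamc1* had 0.64 (FDR 0.0197). *Lamc3*, another laminin chain, had 9 and 0 counts in GFP, 0 and 5 in YAP6SA, and 77 and 115 in YAP5SA. It is among the 3 called higher but entered the test only through the YAP5SA group, and the size of its change is uncertain at these counts. *Lama2* (-0.76, FDR 0.0275), *Lama4* (-0.64, FDR 0.0332) and *Lamb2* (-0.67, FDR 0.0496), laminin chains of muscle and vessel basement membranes, were called lower. The nidogens *Nid1* and *Nid2* and *Hspg2*, which encodes perlecan, were not called.
Over all 4 lists, the 19 genes called higher in YAP5SA OE CMs became 9 without GFP replicate 2, and the 4 called lower became 1 without the replicate block, 11 without YAP5SA replicate 1 and 0 when GFP replicate 2 or YAP5SA replicate 2 was left out.
In YAP6SA OE CMs, 0 of the 61 genes tested in these 4 lists were called against GFP in either direction, and 5 were higher and 2 lower at an unadjusted p under 0.05, where 3.86% and 2.07% of all genes were. The fit of 4 libraries called 4 of them higher, as did the fit without YAP5SA replicate 1 and that without YAP5SA replicate 2, and DESeq2 called 0. In the direct comparison, *Plod2* (3.03), *Ddr2* (2.68) and *Ddr1* (1.97) were among the genes higher in YAP5SA than in YAP6SA OE CMs. The 61 genes include *P4ha3*, *P3h2*, *Lox*, *Timp3*, *Itga2* and *Lamc3*, which entered the test only through the YAP5SA group. They also include *Itga11*, which entered only through the YAP6SA group. Of the 61, 17 were higher and 3 lower in YAP5SA OE CMs, beside 9.0% and 5.68% of all genes. These counts were 6 and 0 without YAP6SA replicate 2, 10 and 1 without YAP5SA replicate 2, and 25 and 10 without YAP5SA replicate 1. The number lower was 1 without YAP6SA replicate 1 and 0 without the replicate block.

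**Figure D5:**
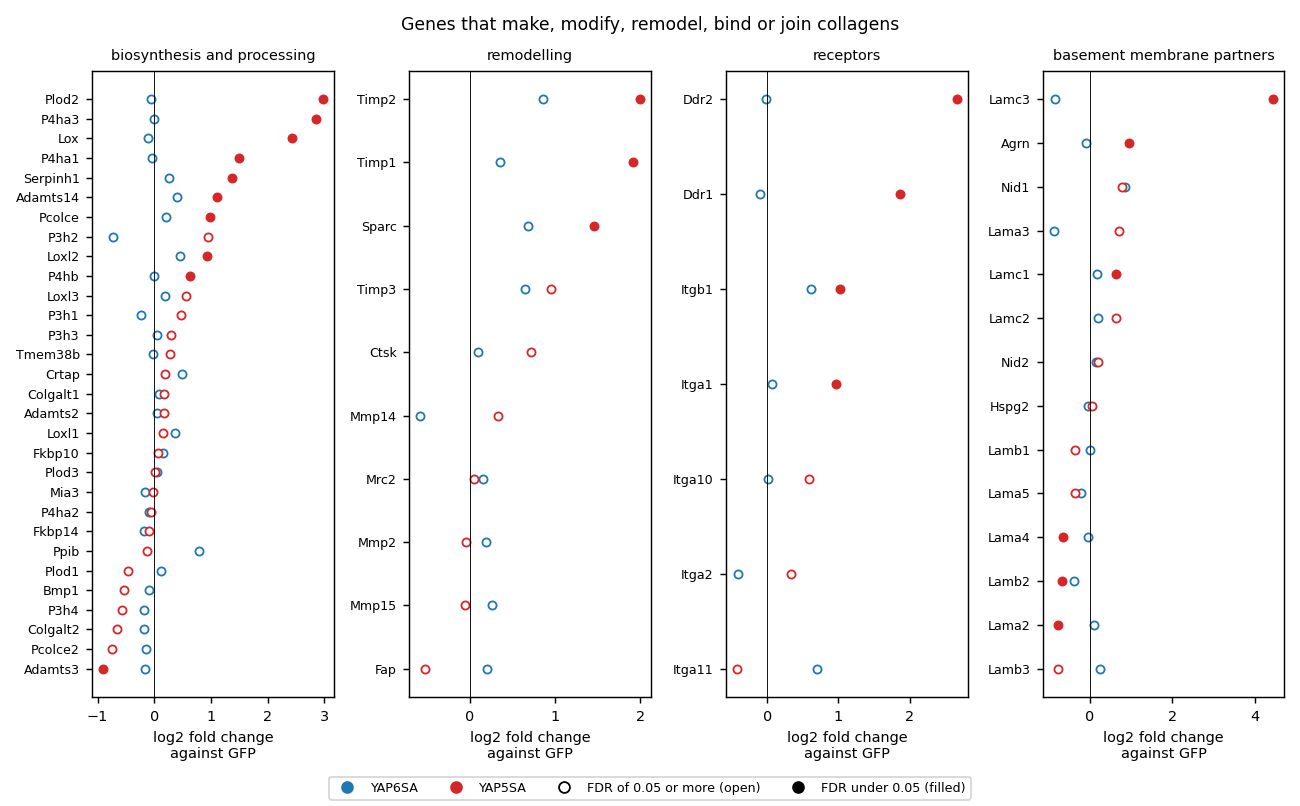
Log2 fold change against GFP (horizontal axes, with their own range in each panel) of genes that make and process collagen, remodel it, act as its receptors or join it in basement membranes, in YAP6SA (blue) and YAP5SA (red) OE CMs; filled points passed the FDR threshold of 0.05. The filled points are all red, 19 of them above 0 and 4 below.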

How the data were processed

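Poly-A RNA of PCM-1-bound nuclei was sequenced in 6 libraries, 2 per group. Per the study's methods, STAR aligned the reads to mm10 (Ensembl annotation of GRCm38), and the authors deposited raw read counts per gene, without normalization or filter. The STAR version is not given in the sources used here. Reads in rows that name no gene (unmapped, multimapping, outside genes or ambiguous) were left out, at 3.03% to 3.63%, 2.90% to 4.19%, 9.43% to 9.84% and 5.79% to 6.31% of all reads. Symbols, coordinates and exon lengths came from GENCODE M21, which named 54495 of the 54532 genes, and promoter windows from RefSeq.

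Genes with a median log2 CPM over 1 in at least 1 group (13323) were fitted with edgeR 4.0.16 in R 4.3.3 (TMM scaling, quasi-likelihood test, terms for group and batch, all 6 libraries), and p-values were adjusted by Benjamini-Hochberg and read at 0.05. Standard errors and 95% intervals are those of the fit, and differences per batch are of log2 CPM with a prior count of 2. The replicate number is the batch number in the labels, which pairs the libraries, and deviations from group means correlated across genes at 0.368, 0.0985 and 0.175 for the pairs of groups. Each library is taken as a heart of its own, since 2 hearts were collected per virus, and p-values measure the spread between these libraries. The alternatives were DESeq2's size factors (RLE), the likelihood ratio test of edgeR, DESeq2 1.42.0, no filter, a minimum of 10 counts per library, no replicate block, only the 4 libraries compared, and each library left out. When a library was left out, the remaining one was assumed to vary like the other groups. Medians within each batch were added after the data were seen.

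The genes, classes and lists were chosen with earlier results of these data known. In full are given *Col1a1*, *Col1a2*, *Col3a1*, *Col4a1*, *Col4a2* and up to 12 called collagen genes in each direction, and in part up to 5 called genes in each direction of the biosynthesis, remodelling and receptor lists, the 5 fibroblast markers of highest level and 2 markers of each other list. The steps were tested on simulated counts for YAP5SA against GFP. Of 100 genes given a log2 change of 1 in either direction, 73 were called, and of 100 given a change of 2, 99 were called. Of 12775 genes left unchanged, 14 were called. A gene that was not called can therefore still have a change of about 1 on the log2 scale.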

Additional observations from a re-analysis of the deposited data

How the results depend on the processing

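No collagen gene named in full changed direction where it had been called. Of the alternatives for the named collagen log2 fold changes, 505 kept their side of the threshold, 32 lost it and 8 gained it. Without the replicate block, the YAP5SA and GFP comparison had 759 genes lower in all, and *Col4a1*, *Col6a3* and *Col15a1* were not called, the comparison with YAP6SA had 0 collagen genes and 301 genes in all lower, and YAP6SA against GFP had 0 genes higher. In YAP6SA against GFP, all genes called higher and lower were 109 and 36 with no filter, 54 and 28 with the likelihood ratio test, 40 and 15 with DESeq2, and 168 and 68 with the 4 libraries compared, where 1 collagen gene (*Col6a3*) was higher. The likelihood ratio test called 2 collagen genes lower in YAP5SA against GFP (*Col11a2* and *Col23a1*), and all genes lower in YAP5SA than in YAP6SA were 1161 with no filter and 1155 with that test. With 1 library left out, collagen genes called higher ran from 0 to 1 in YAP6SA, from 4 to 12 in YAP5SA and from 3 to 10 in YAP5SA against YAP6SA, and those called lower from 0 to 1 in both YAP5SA comparisons. All genes higher then ran from 6 to 157, from 591 to 2538 and from 341 to 2167, and all genes lower from 0 to 59, from 197 to 2261 and from 69 to 1931, in the same order. The highest counts came without YAP5SA replicate 1 or 2, and the cause was not tested. *Col12a1*, *Col4a3*, *Col4a4* and *Col4a5* were called in YAP5SA against GFP under all 7 other fits and all 6 left-out libraries. The median of the collagen genes in that comparison was 0.43 with no filter and 0.34 with at least 10 counts in every library, 0.35 with the size factors of DESeq2 in edgeR and with DESeq2 itself, 0.42 without the block, 0.34 and 0.33 within batches 1 and 2, and from 0.30 to 0.38 with a library left out. Within the batches it was 0.25 and 0.06 in YAP6SA against GFP (from 0.035 to 0.25 with a library left out), and -0.09 and 0.13 in YAP5SA against YAP6SA, where it ran from -0.059 to 0.18 with a library left out, the latter without YAP5SA replicate 1. Depth limits the 11 genes not tested and *Col9a2*, *Col6a5* and *Lamc3*, whose counts are low in GFP.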
